A study of Mus musculus with 12 samples.

Results

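Granule proteins of neutrophils, eosinophils, basophils and mast cells, with the receptors and transcription factors that accompany them, were examined as one set of 35 listed genes in the liver of term mouse fetuses with and without *Ppara*. The rule of the list is a set of names and uses no measured value, though the names were drawn up with earlier results of these data known. Of the 35 genes, 32 had a probeset of their own among the 19938 genes measured: 31 were found by symbol and Chi3l3 through its current symbol *Chil3*. *Ear1*, *Ear2* and *Stfa1* had none (*Stfa1* was on a probeset shared with other genes) and were not analysed here. *Ppara* encodes PPARα, a nuclear receptor for fatty acids. Whole livers were taken at E19.5 by cesarean section from 6 *Ppara*-/- fetuses (KO) and 6 *Ppara*+/+ fetuses (WT), the offspring of heterozygous parents. The labels give the strain SV129 and the methods name another background. The null allele was carried in every cell of the body, the 6 livers of a genotype came from fewer litters than livers according to the methods, and the labels do not say which livers were littermates. RNA of 1 liver was hybridized to each array, so p-values measure the spread between these livers. Values are log2 signals, and differences are KO minus WT.

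Before birth the liver is a major site of blood formation. Myeloid progenitors there give rise to neutrophils, which fill azurophil granules with serine proteases and myeloperoxidase at the promyelocyte stage, specific granules at the myelocyte stage and gelatinase granules later. Eosinophils, basophils and mast cells store their own cationic proteins and proteases. Transcripts of these granule proteins are therefore commonly used as signs of the stage and lineage of granulocytes in a tissue. In RNA of a whole liver, fewer cells of a type and less RNA per cell cannot be told apart.

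The genotype labels held in the array signal of the targeted gene. *Ppara* ranged from 9.66 to 9.94 in KO livers and from 10.71 to 10.95 in WT livers, without overlap (difference -1.01, adjusted p = 3.57e-08, limma). The hepatocyte markers *Alb*, *Afp*, *Apoa1* and *Ttr* were between 13.20 and 13.64 in each liver, and no array correlated with another below 0.988. *Xist* and the Y-linked genes marked KO mouse 2 and WT mice 2, 3 and 4 as male, so sex was unequal between the groups. Markers of other blood cells were counted as well. Of 15 erythroid, 9 megakaryocyte, 13 B lymphoid, 11 T and NK lymphoid and 14 cell cycle genes, 0 passed the test in either direction. Of 12 stem and progenitor genes 1 was lower (*Hlf*), and of 11 hepatocyte genes 1 was lower (*Tat*). Over all genes 3.82% were lower and 3.42% higher.

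None of the 32 measured members differed between the genotypes after adjustment over all genes. The limma test called 0 members lower, against 3.82% of all genes, and 0 members higher, against 3.42% of all genes. The member nearest to the threshold was *Mmp8*, with an adjusted p of 0.0548. At an unadjusted p under 0.05, 1 member was lower (*Mcpt8*), where 10.4% of all genes were, and 4 members were higher (*Mmp8*, *Kit*, *Ctsg* and *Prtn3*), where 10.5% were. The exact Mann-Whitney test gave an unadjusted p under 0.05 for 4 members (18.5% of all genes) and an adjusted p under 0.05 for 0 members, but the smallest adjusted p it reached for any gene was 0.0603. In 0 members did the 2 groups of 6 livers not overlap, against 3.59% of all genes. The members' shares were thus close to those of all genes or below them.

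Taken gene by gene and with the livers treated as independent, the data limited the size of any difference in array signal. Shared litters, which the model does not include, could make the intervals too narrow. The 95% interval of each of the 32 differences lay within a 1.5-fold change in either direction, and 29 of the 32 lay within 1.3-fold. For 7 of the 32 the signal stayed below the median gene of the array in every liver. Signal over background was not measured, so for these dim members the intervals do not bound the change in transcript. The lowest bound was -0.52 (*Mcpt8*) and the highest was 0.51 (*Kit*). The members' median difference was 0.06 and that of all genes 0.01. Of the 32 differences, 22 were positive (68.8%), where 53.5% of all genes were positive. Among the 23 neutrophil members 18 were positive, with a median of 0.07, and all 23 intervals lay within 1.3-fold. Several members come from the same cells and share their level, so the signs are not independent of each other.

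**Figure D1:**
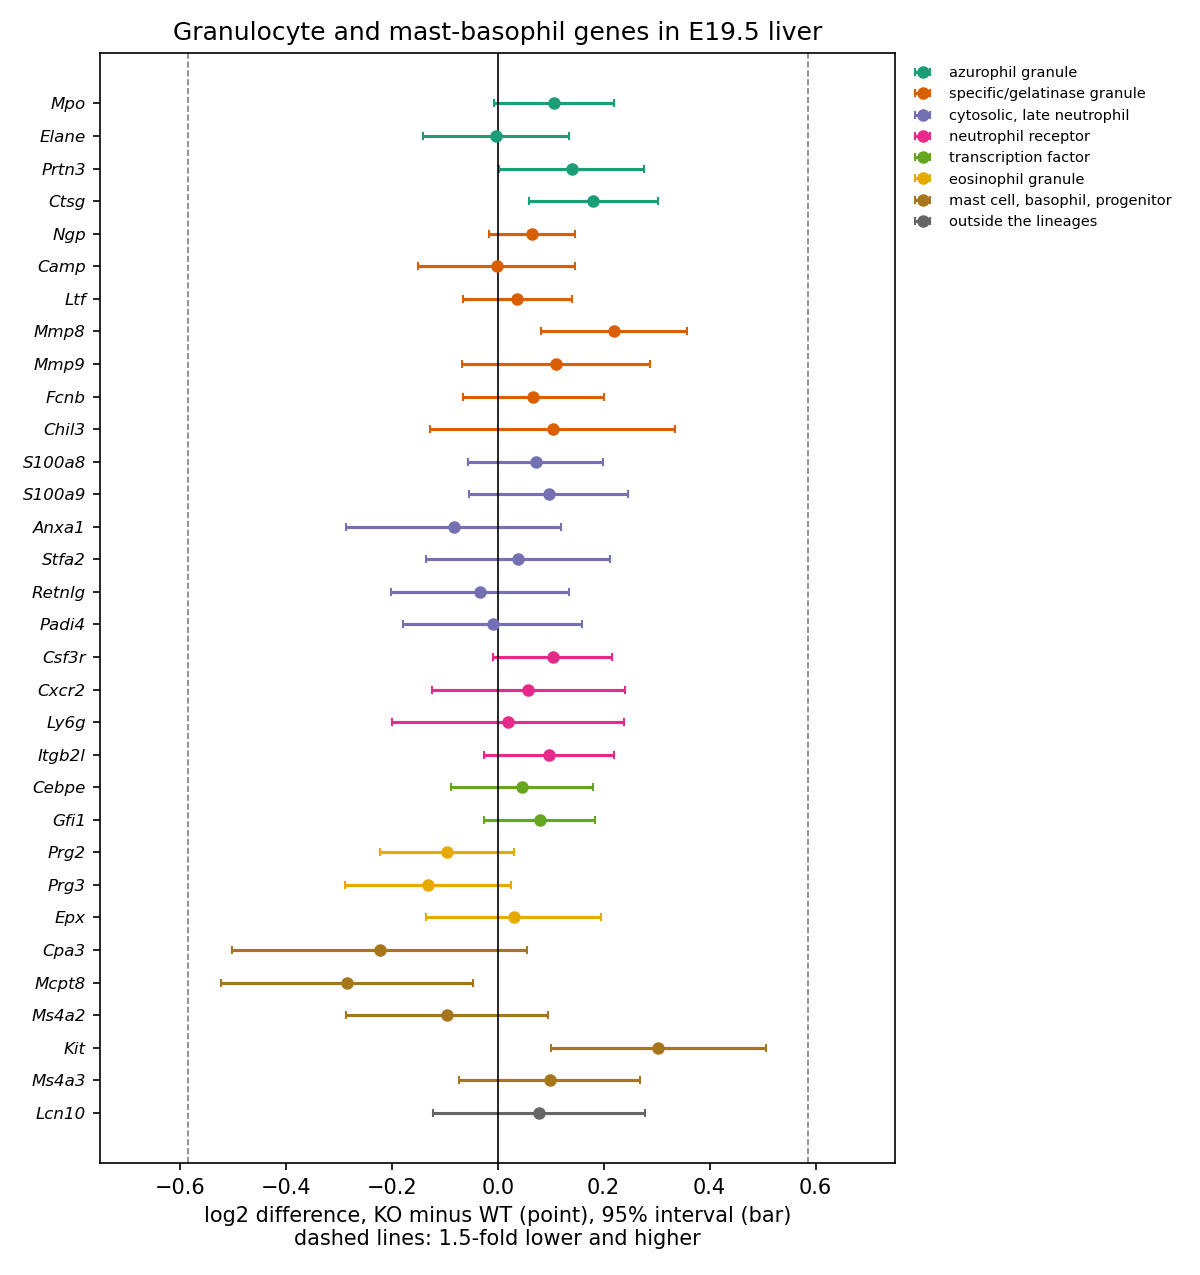
Difference of each measured member on the log2 scale (horizontal axis, KO minus WT; points, limma estimate; bars, 95% interval; colours, role; n = 6 livers per genotype; dashed lines, 1.5-fold). All 32 intervals lie between the dashed lines, with *Kit* farthest to the right at 0.30 and *Mcpt8* farthest to the left at -0.28.

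The azurophil granule genes stand first because their products are made earliest, at the promyelocyte stage. Of the 4, 0 passed the test, and their median difference was 0.12. *Ctsg*, cathepsin G, a chymotrypsin-like serine protease of the granule, had a lowest, median and highest value of 10.10, 10.16 and 10.23 in KO livers and of 9.89, 9.91 and 10.17 in WT livers. In WT livers the values fell apart, with mice 3 and 5 at 10.11 and 10.17 and the other 4 between 9.89 and 9.92. The difference was 0.18 ± 0.06 (SE), 1.13-fold (unadjusted p = 0.0064, adjusted p = 0.0701). *Prtn3*, proteinase 3, ran from 9.89 through a median of 9.96 to 10.08 in KO livers and from 9.70 through 9.79 to 10.10 in WT livers. The highest value of all was thus from a WT liver, mouse 5, and the difference of 0.14 ± 0.06 did not pass (adjusted p = 0.228).

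*Mpo*, myeloperoxidase, which makes hypochlorous acid from hydrogen peroxide and chloride, overlapped between the groups. Its lowest, median and highest values were 10.94, 11.01 and 11.11 in KO livers and 10.80, 10.90 and 11.08 in WT livers, a difference of 0.11 ± 0.05 (adjusted p = 0.278). *Elane*, neutrophil elastase, the neighbour of *Prtn3* in the genome, showed almost the same centre in both groups. It ran from 10.37 through 10.44 to 10.62 in KO livers and from 10.33 through 10.44 to 10.69 in WT livers, with a difference of -0.003 (95% interval -0.14 to 0.13). WT mouse 5 was the highest WT liver for each of the 4 genes.

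Start regions of these 4 genes and of *Mmp8*, the member nearest to the threshold, are shown because the first 4 shared their highest WT liver. They are RefSeq sequences on GRCm38.p6, each 300 bases, from 250 before to 50 after the transcription start, 5′ to 3′ on the strand of the gene. Capitals mark matches on either strand to the core GAGGAA bound by PU.1, the letters TTNNGCAA of C/EBP sites, and the core TGTGGT of RUNX sites, 3 families of factors known from myeloid genes.
Mpo (chr11:87793534-87793833, plus strand): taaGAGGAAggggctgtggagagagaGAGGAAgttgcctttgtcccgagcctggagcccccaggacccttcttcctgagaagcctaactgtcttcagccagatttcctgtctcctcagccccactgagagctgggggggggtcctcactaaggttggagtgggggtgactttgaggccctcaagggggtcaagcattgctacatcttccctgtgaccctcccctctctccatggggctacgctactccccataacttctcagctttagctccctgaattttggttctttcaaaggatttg
Elane (chr10:79886062-79886361, plus strand): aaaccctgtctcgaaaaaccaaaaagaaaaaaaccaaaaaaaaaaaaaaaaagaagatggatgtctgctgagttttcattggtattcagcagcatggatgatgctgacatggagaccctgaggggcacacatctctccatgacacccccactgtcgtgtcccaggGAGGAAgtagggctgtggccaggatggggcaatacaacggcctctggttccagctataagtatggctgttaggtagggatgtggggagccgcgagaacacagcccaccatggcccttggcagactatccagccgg
Prtn3 (chr10:79879417-79879716, plus strand): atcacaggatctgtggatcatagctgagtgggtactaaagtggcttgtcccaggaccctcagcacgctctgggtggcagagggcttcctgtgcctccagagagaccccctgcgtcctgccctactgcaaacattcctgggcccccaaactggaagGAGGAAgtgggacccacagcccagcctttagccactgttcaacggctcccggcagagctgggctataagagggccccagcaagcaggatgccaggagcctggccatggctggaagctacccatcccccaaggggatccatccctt
Ctsg (chr14:56102525-56102824, minus strand): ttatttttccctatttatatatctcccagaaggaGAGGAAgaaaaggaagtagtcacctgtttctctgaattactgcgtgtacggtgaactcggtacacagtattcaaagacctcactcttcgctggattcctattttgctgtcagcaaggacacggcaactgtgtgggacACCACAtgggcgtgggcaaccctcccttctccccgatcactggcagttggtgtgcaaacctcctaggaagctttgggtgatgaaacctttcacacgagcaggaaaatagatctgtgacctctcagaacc
Mmp8 (chr9:7558179-7558478, plus strand): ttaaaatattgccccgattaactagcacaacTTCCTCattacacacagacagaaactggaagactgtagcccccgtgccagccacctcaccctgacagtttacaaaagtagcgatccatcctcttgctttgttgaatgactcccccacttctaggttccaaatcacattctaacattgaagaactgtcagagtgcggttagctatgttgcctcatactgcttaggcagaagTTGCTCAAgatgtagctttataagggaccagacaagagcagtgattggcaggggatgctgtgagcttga

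The PU.1 core stood in each of the 4 azurophil start regions, 2 times in that of *Mpo*, and the C/EBP letters stood in that of *Mmp8* alone among these 5. Of the 32 measured members, 29 had a start region in the RefSeq table (not *Cebpe*, *Mmp9* and *Prg2*). The PU.1 core was found in 16 of the 29 (55.2%) and in 28.3% of 32851 start regions of the same length. The C/EBP letters were found in 10 of the 29 (34.5%), against 10.8%, and among the 10 were *Ngp*, *Ltf*, *Fcnb*, *S100a9*, *Ly6g* and *Gfi1*. The RUNX core was found in 7 of the 29 (24.1%), against 16.8%. PPARα is known to bind pairs of the half-site AGGTCA that are 1 base apart. Allowing 2 mismatches over both half-sites, such a pair was found in 2 of the 29 (*Ctsg* and *Retnlg*; 6.90%), against 3.86%, and it is not in capitals above. No match of the PU.1, C/EBP or RUNX letters overlapped a match of another of them. Overlap with the half-site pair was not checked. These matches describe letters in a window, and binding was not measured.

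Specific and gelatinase granule genes followed, whose products are made after the azurophil set. Of the 7, 0 passed the test, with a median difference of 0.07 and 6 positive differences. *Mmp8*, the neutrophil collagenase, had a lowest, median and highest value of 10.31, 10.41 and 10.65 in KO livers and of 10.04, 10.21 and 10.36 in WT livers. Of the 6 KO livers, 4 lay above every WT liver, and KO mice 2 and 6, at 10.35 and 10.31, lay within the WT range. The difference was 0.22 ± 0.06, 1.16-fold, with an unadjusted p of 0.0042 and the adjusted p of 0.0548 given above, and other settings on the same 12 livers put it on either side of the threshold. The exact Mann-Whitney test gave it an unadjusted p of 0.00866.

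*Ngp*, neutrophilic granule protein, a cystatin-like protein of the granules, was the steadiest member. It ran from 12.45 through 12.50 to 12.56 in KO livers and from 12.40 through 12.43 to 12.51 in WT livers, and its range over the 12 livers was 0.16, the smallest of the 32. The difference was 0.07 ± 0.04 (adjusted p = 0.376). *Ltf*, lactoferrin, which binds iron, ran from 11.08 through 11.18 to 11.28 in KO livers and from 11.03 through 11.14 to 11.23 in WT livers. Its difference was 0.04 ± 0.05 (adjusted p = 0.750). *Mmp9*, gelatinase B, ran from 9.19 through 9.36 to 9.62 in KO livers and from 9.03 through 9.29 to 9.44 in WT livers, with a difference of 0.11 ± 0.08 (adjusted p = 0.516). The groups overlapped for each of these 3 genes. *Camp*, the cathelicidin precursor (-0.002), *Fcnb*, ficolin B (0.07), and *Chil3*, a chitinase-like protein (0.10), had adjusted p-values of 0.992, 0.619 and 0.671.

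Cytosolic and late neutrophil genes showed the smallest median difference of the neutrophil groups, 0.01, with 3 of 6 positive and 0 that passed. *S100a8* and *S100a9* encode the subunits of calprotectin, an abundant calcium-binding protein of the neutrophil cytosol. *S100a8* ran from 10.99 through 11.14 to 11.27 in KO livers and from 10.92 through 11.07 to 11.18 in WT livers, a difference of 0.07 ± 0.06 (adjusted p = 0.571). *S100a9* ran from 10.82 through 11.02 to 11.18 in KO livers and from 10.71 through 10.94 to 11.08 in WT livers, a difference of 0.10 ± 0.07 (adjusted p = 0.498). For both subunits mouse 6 was the lowest liver of its genotype. *Anxa1*, annexin A1, an anti-inflammatory protein of the neutrophil cytosol that other cells make too, ran from 9.13 through 9.29 to 9.53 in KO livers and from 9.08 through 9.41 to 9.70 in WT livers. Its difference was -0.08 ± 0.09 (adjusted p = 0.704). *Stfa2*, a stefin that inhibits cysteine proteases (0.04), *Retnlg*, resistin-like gamma (-0.03), and *Padi4*, which converts arginine to citrulline in histones (-0.01), had adjusted p-values between 0.861 and 0.968.

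Of the 4 neutrophil receptor and surface genes 0 passed, though all 4 differences were positive, with a median of 0.08. *Csf3r*, the receptor of granulocyte colony-stimulating factor, ran from 7.99 through 8.09 to 8.24 in KO livers and from 7.92 through 8.00 to 8.09 in WT livers. In 4 of 6 KO livers it was above every WT liver, by small margins, and the difference was 0.10 ± 0.05 (adjusted p = 0.284). *Cxcr2*, the chemokine receptor that draws neutrophils out of the marrow, ran from 9.07 through 9.21 to 9.50 in KO livers and from 8.88 through 9.21 to 9.34 in WT livers (difference 0.06 ± 0.09, adjusted p = 0.784). *Ly6g*, the surface antigen by which mouse neutrophils are sorted, ran from 9.29 through 9.70 to 9.95 in KO livers and from 9.42 through 9.64 to 9.77 in WT livers. The KO livers enclosed the whole WT range, and the difference was 0.02 ± 0.10 (adjusted p = 0.950). *Itgb2l*, an integrin beta 2-like protein, ran from 7.44 through 7.62 to 7.76 in KO livers and from 7.39 through 7.48 to 7.62 in WT livers (difference 0.10 ± 0.06, adjusted p = 0.382).

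The 2 transcription factors on the list act at successive steps of granulopoiesis. *Gfi1*, a repressor needed for the choice of the neutrophil over the monocyte fate, ran from 6.89 through 6.95 to 7.01 in KO livers and from 6.71 through 6.91 to 6.96 in WT livers, a difference of 0.08 ± 0.05 (adjusted p = 0.403). *Cebpe*, C/EBP epsilon, which is required for the specific granule genes, ran from 8.00 through 8.18 to 8.23 in KO livers and from 7.91 through 8.09 to 8.26 in WT livers, a difference of 0.05 ± 0.06 (adjusted p = 0.761). Neither passed. The groups overlapped for both genes, less for *Gfi1*, for which WT mice 2 and 4, at 6.81 and 6.71, lay below every KO liver.

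**Figure D2:**
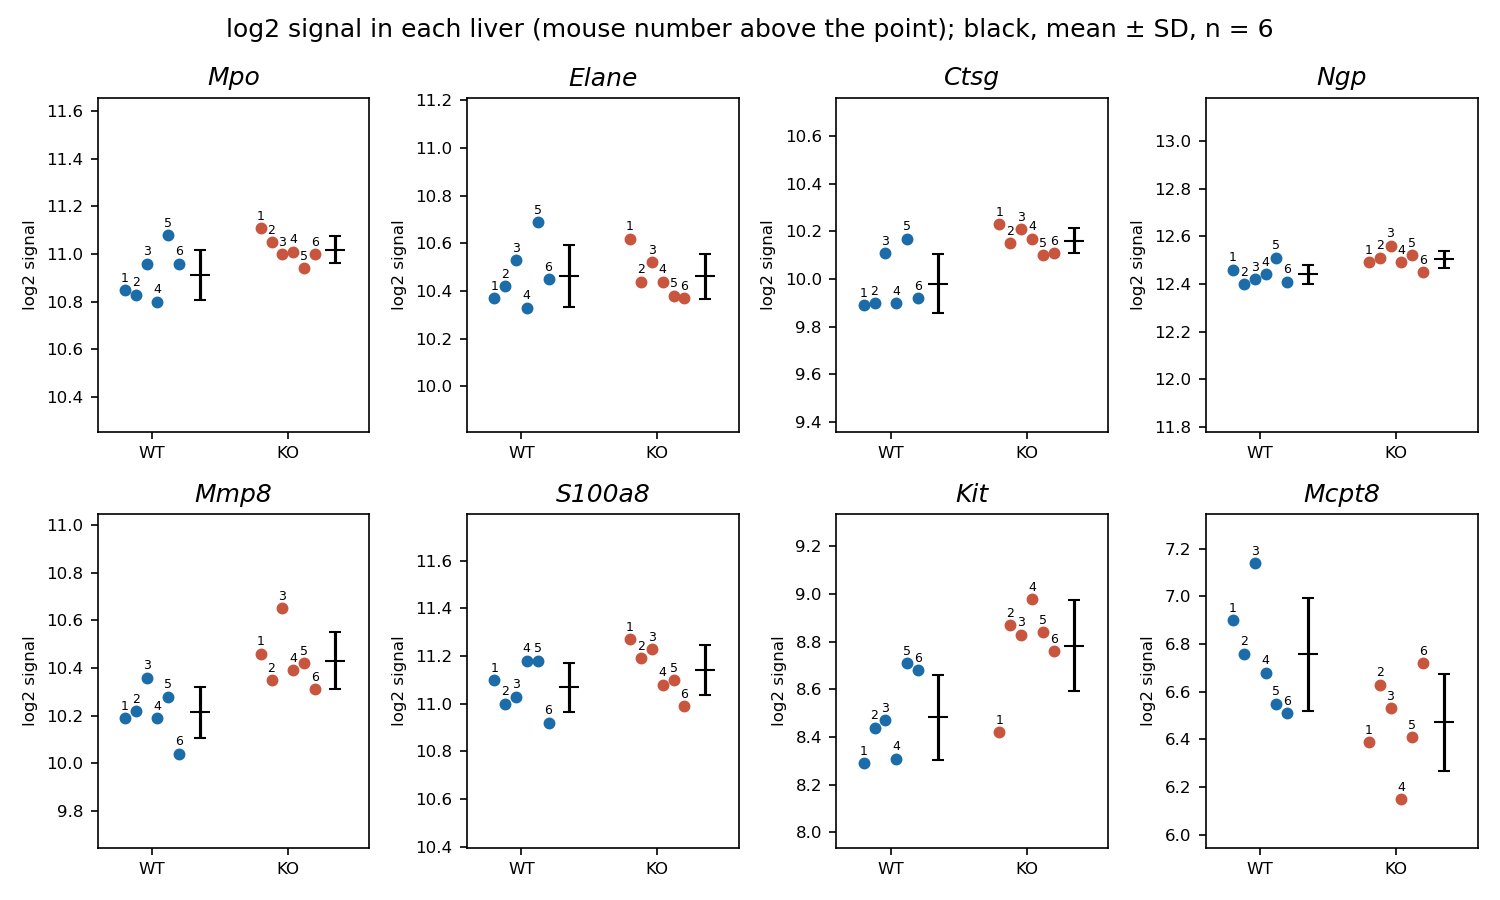
log2 signal of 8 members in each liver (points, with the mouse number above each; black, mean ± SD, n = 6 livers; every vertical axis spans the same number of log2 units around its own centre). For *Kit*, 5 of 6 KO livers lie above all WT livers and KO mouse 1 at 8.42 lies among them, and for *Mcpt8* the WT livers reach up to 7.14.

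The eosinophil granule genes had a median difference of the opposite sign, -0.10, and 0 of 3 passed. *Prg2*, the major basic protein, ran from 8.37 through 8.54 to 8.62 in KO livers and from 8.48 through 8.61 to 8.74 in WT livers (difference -0.10 ± 0.06, adjusted p = 0.401). *Prg3*, a homologue of the major basic protein beside *Prg2* in the genome, ran from 5.96 through 6.13 to 6.20 in KO livers and from 6.05 through 6.20 to 6.48 in WT livers. It was under the WT mean in each of the 6 KO livers, with a difference of -0.13 ± 0.07 (adjusted p = 0.344). *Epx*, eosinophil peroxidase, ran from 6.53 through 6.76 to 6.91 in KO livers and from 6.48 through 6.74 to 6.88 in WT livers (difference 0.03 ± 0.08, adjusted p = 0.886).

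The mast cell, basophil and progenitor genes held the largest differences of the set, in both directions, and 0 of 5 passed. *Kit*, the receptor of stem cell factor, is carried by mast cells and by blood stem and progenitor cells, early erythroid cells included. Its lowest, median and highest values were 8.42, 8.83 and 8.98 in KO livers and 8.29, 8.45 and 8.71 in WT livers. In 5 of 6 KO livers it was above every WT liver, and KO mouse 1 was the exception. The difference was 0.30 ± 0.09, 1.23-fold, with an unadjusted p of 0.0062 and an adjusted p of 0.0690. Without KO mouse 1, *Kit* was the 1 member called higher, where 6.89% of all genes were called higher. KO mouse 1 was the lowest KO liver for *Kit*, so leaving it out had to raise the difference, and this fit adds no support. The mean level of 15 erythroid markers ran from 10.18 to 10.29 in KO livers and from 9.99 to 10.27 in WT livers, and that of 12 stem and progenitor markers from 7.49 to 7.58 and from 7.46 to 7.61. Their part in the *Kit* value was not tested.

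*Mcpt8*, mast cell protease 8, which in spite of its name is a protease of basophils, had the largest negative difference. It ran from 6.15 through 6.47 to 6.72 in KO livers and from 6.51 through 6.72 to 7.14 in WT livers. Each of the 6 KO livers was below the WT mean and 3 were below every WT liver, and the difference was -0.28 ± 0.11, 1.22-fold lower (unadjusted p = 0.0220, adjusted p = 0.148). *Cpa3*, carboxypeptidase A3 of mast cells and basophils, had a difference of -0.22 ± 0.13 (adjusted p = 0.371) and the widest range of any member over the 12 livers, 1.11. WT mouse 3 was the highest of the 12 livers for both genes, at 7.14 and 6.97, and KO mouse 4 the lowest, at 6.15 and 5.87. *Ms4a2*, the beta chain of the high-affinity IgE receptor, had a difference of -0.10 (adjusted p = 0.619). *Ms4a3*, a marker of granulocyte-monocyte progenitors, ran from 8.14 through 8.20 to 8.40 in KO livers and from 7.98 through 8.09 to 8.46 in WT livers (difference 0.10 ± 0.08, adjusted p = 0.554). Its neighbour in the genome thus had the opposite sign, and neither passed.

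*Lcn10*, an epididymal lipocalin, belongs to none of these lineages. It ran from 5.05 through 5.39 to 5.53 in KO livers and from 4.96 through 5.23 to 5.51 in WT livers, with a difference of 0.08 ± 0.09 (adjusted p = 0.726). It was 1 of 7 members that stayed below the median gene of the array in every liver. The others were *Padi4*, *Gfi1*, *Prg3*, *Epx*, *Cpa3* and *Ms4a2*. *Mcpt8* was dim as well, with a highest value of 7.14. The array medians lay between 7.13 and 7.18.

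Neutrophil members ranged over a median of 0.37 across the 12 livers, close to the median of 0.40 over all genes. Their median difference between the genotypes was 0.07, a difference of means and thus not the same measure as a range. Mean levels over the 23 genes ran from 9.58 to 9.84 in KO livers and from 9.50 to 9.77 in WT livers. In WT, mouse 5 was the highest of the 6 livers for 17 of the 23 genes, and mouse 6 the lowest for 14. Over all genes, mouse 5 was the highest WT liver for 17.6% and mouse 6 the lowest for 20.8%. In KO, mouse 3 was the highest for 12 of the 23 genes and mouse 1 for 9, and mouse 6 was the lowest for 14. Over all genes the shares were 22.6%, 22.1% and 14.01%. KO mouse 6 was below the mean of the other 5 livers for 22 of the 23 genes, and WT mouse 6 for 21. Most neutrophil transcripts thus lay below the mean in both livers numbered 6. These are different fetuses, and the labels give no meaning to their common number. The livers numbered 5 went opposite ways. KO mouse 5 was below the mean of the other 5 for 18 of the 23 genes, and WT mouse 5 was above it for 20. Whether livers of the same number are linked was not tested. Not every liver leaned to 1 side. WT mouse 4 was above the mean of the other 5 for 12 of the 23 genes and below it for 11.

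The low values of KO mouse 6 and of WT mouse 6 were clearest in the cytosolic and late genes. Mouse 6 was the lowest liver of its genotype for all 6 of them, in KO and in WT. Among the 7 specific and gelatinase granule genes, mouse 6 was the lowest for 6 in KO and for 6 in WT. For the 4 azurophil genes KO mouse 6 was the lowest for 1 and WT mouse 6 for 0, though each was below the mean of the other 5 livers of its genotype for 3 of the 4. In WT, mouse 4 was the lowest for 3 of the 4 and mouse 5 the highest for 4. WT mouse 4 was below the mean of the other 5 for all 4 azurophil genes but above it for all 6 cytosolic and late genes. The difference between the granule classes was not tested, and the litters of these livers are not named in the labels.

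**Figure D3:**
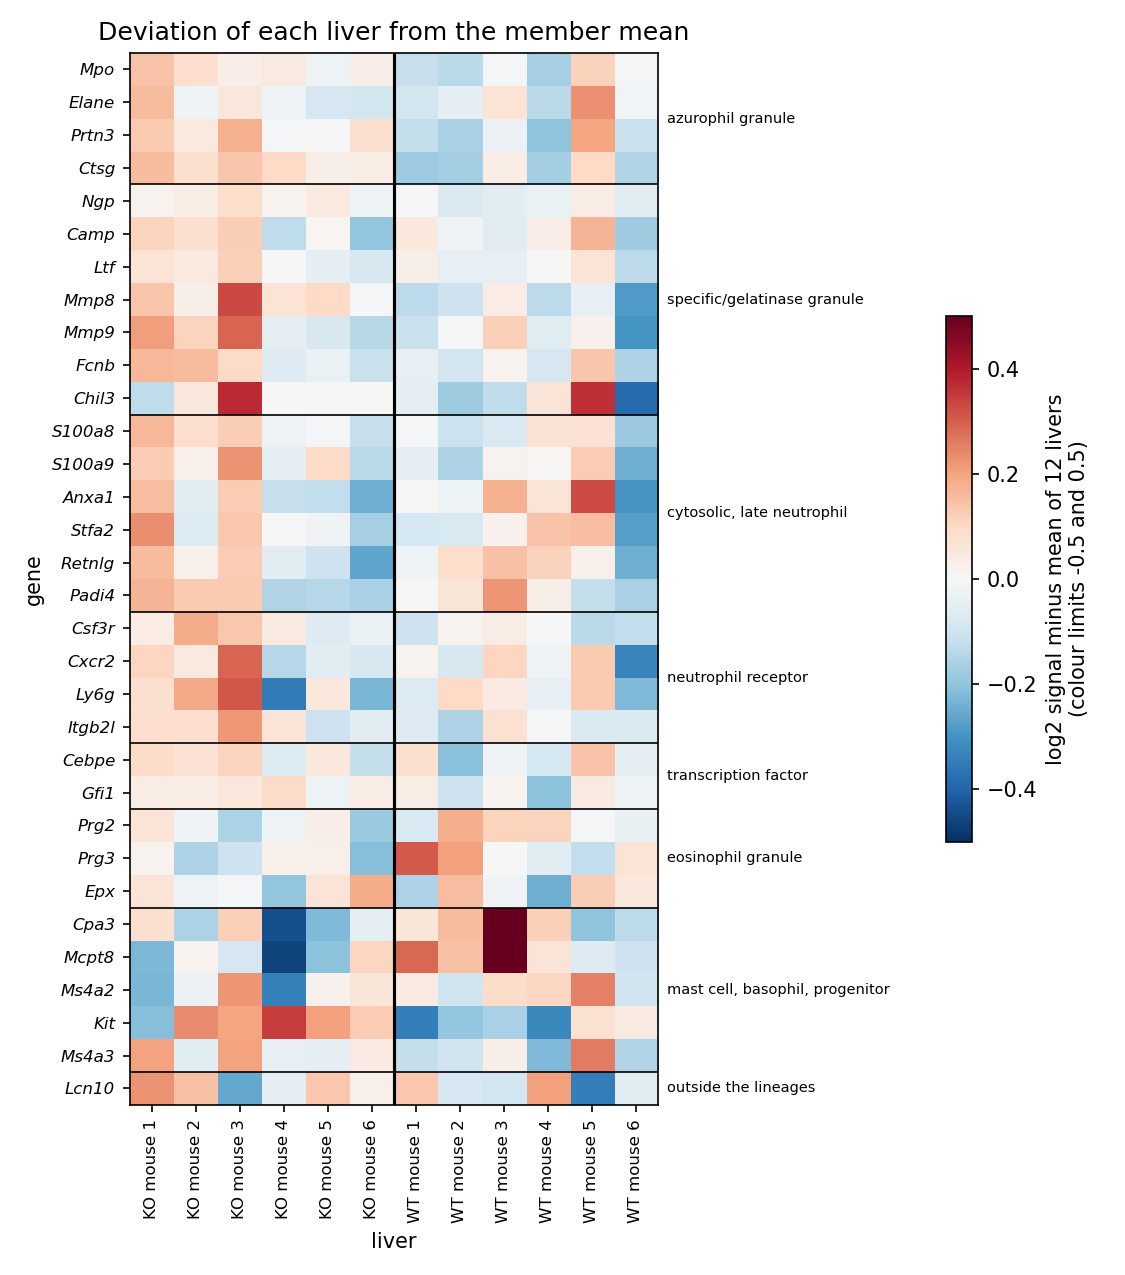
Each member's log2 signal in each liver minus its mean over the 12 livers (rows, genes by role; columns, livers; red, above the mean; blue, below; colours end at -0.5 and 0.5). KO mouse 3 and WT mouse 5 are red and mouse 6 of both genotypes is mostly blue over the neutrophil rows, whereas *Cpa3* and *Mcpt8* are darkest red in WT mouse 3.

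The call of 0 members higher was close to the threshold and moved with the model and with single livers. In 10 other limma settings on the 12 livers, *Mmp8* was called higher in 7, *Kit* in 3 and *Ctsg* in 3, and the sign of each stayed positive. In 12 fits that each left out 1 liver, *Mmp8* was called in 1, *Kit* in 3, *Ctsg* in 1 and *Prtn3* in 1. Over these 22 settings the adjusted p of *Mmp8* ran from 0.0156 to 0.105, that of *Kit* from 0.00653 to 0.159 and that of *Ctsg* from 0.023 to 0.149. With array weights, which give less weight to arrays that vary more, *Kit* and *Mmp8* were called higher, where 6.45% of all genes were. Without WT mouse 5, the highest of the 6 WT livers for 17 of the 23 neutrophil members, *Ctsg*, *Kit* and *Prtn3* were called higher, where 3.14% of all genes were. With fetal sex as a covariate 0 members were called higher, where 2.01% of all genes were. *Mcpt8* was called lower in 0 of the 22 settings, with an adjusted p between 0.0789 and 0.349.

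Other genes related to the same lineages, some of them also made by other cells, were counted from 4 lists that held none of the members. Of their 86 measured genes, 3 passed as lower and 5 as higher (3.82% and 3.42% of all genes did), and the median difference was 0.06, close to that of the members. Among 34 other neutrophil genes 28 differences were positive, with a median of 0.08. *Olfm4*, olfactomedin 4 of a subset of neutrophils, rose by 0.22 ± 0.05 (adjusted p = 0.0220). *Alox5ap*, the activating protein of 5-lipoxygenase, rose by 0.18 ± 0.05 (adjusted p = 0.0437). Microsomal glutathione transferase *Mgst1* (-0.36 ± 0.05, adjusted p = 6.93e-04) and *G0s2*, an inhibitor of adipose triglyceride lipase (-0.48 ± 0.10, adjusted p = 0.0116), fell, without overlap between the groups. Both are also made by hepatocytes, and *G0s2* is a known PPARα target. *Mgst1* and *G0s2* were called in all 22 other settings, *Olfm4* in 15 and *Alox5ap* in 9.

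**Figure D4:**
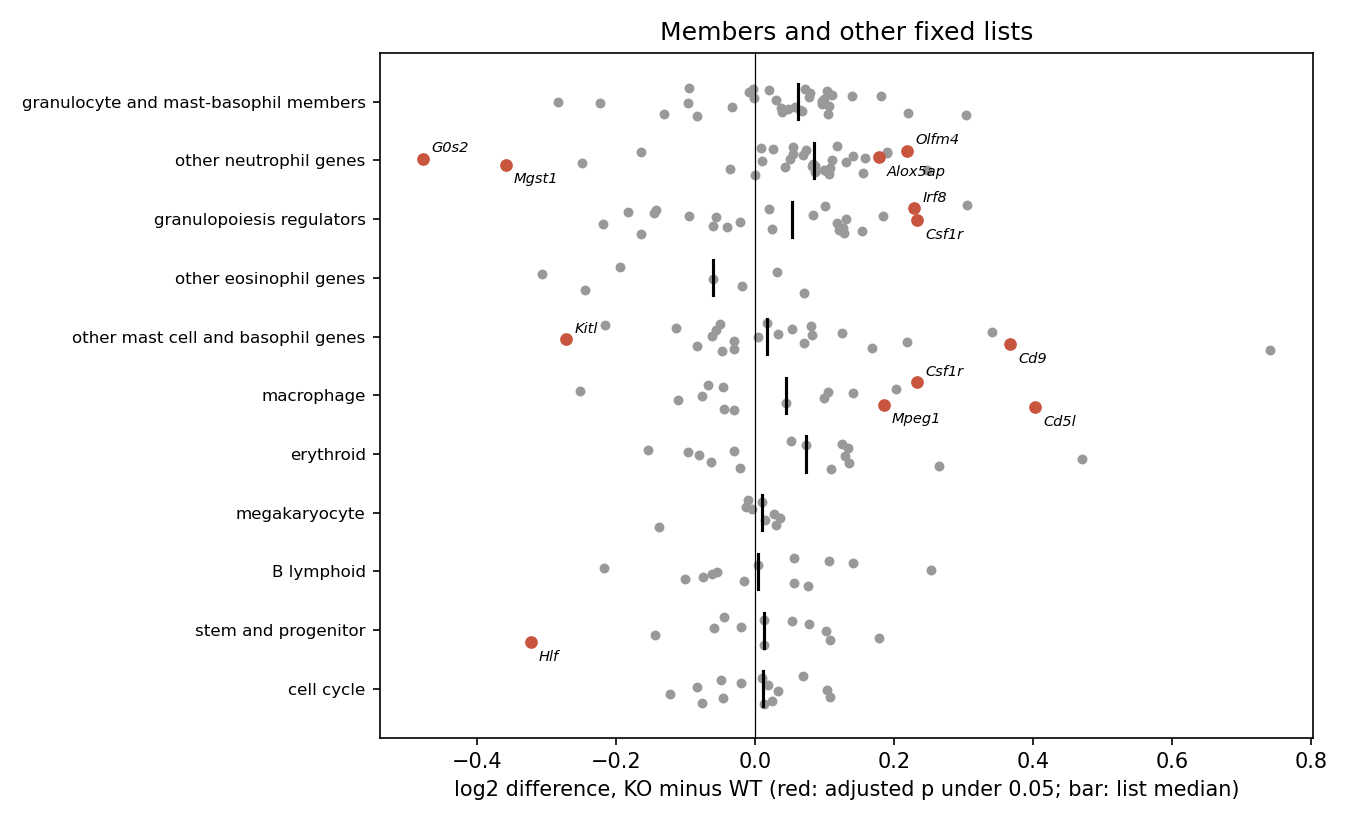
Differences of the members, of the 4 other lists of their lineages and of markers of other cells (horizontal axis, log2, KO minus WT; points, genes; red with names, adjusted p under 0.05; black bars, list medians; vertical scatter within a row has no meaning). The members' row has 0 red points, and its median of 0.06 lies near that of other neutrophil genes, 0.08.

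Regulators of granulocyte and monocyte formation included 2 of 24 that rose, where 3.42% of all genes did. *Csf1r*, the receptor of macrophage colony-stimulating factor, was 10.37 ± 0.09 (SD) in KO livers and 10.14 ± 0.04 in WT livers, without overlap (difference 0.23 ± 0.05 SE, adjusted p = 0.00964). *Irf8*, the factor that favours the monocyte over the neutrophil fate, rose by 0.23 ± 0.06 (adjusted p = 0.0336). *Runx1*, a factor needed for blood stem cells to form, had a difference of 0.18 ± 0.05 and an adjusted p of 0.0556. *Gfi1* and *Cebpe*, which act on the neutrophil side, had differences of 0.08 and 0.05 as given above. Markers of macrophages were mixed: 3 of 15 passed as higher (*Csf1r* itself, *Mpeg1* by 0.18 and *Cd5l* by 0.40) and 0 as lower. The shares of all genes were 3.42% and 3.82%. Of the 15 differences 8 were positive, and the median was 0.04. The macrophage markers *Cd68*, *Vsig4* and *Clec4f* had differences of 0.20 (adjusted p = 0.134), -0.25 (adjusted p = 0.153) and -0.11, none past the threshold. The mean level of the 15 ran from 8.89 to 9.07 in KO livers and from 8.85 to 8.97 in WT livers. Their part in these results was not tested. *Csf1r* was called in all 22 other settings and *Irf8* in 11.

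Of 7 other eosinophil genes 0 passed, and their median difference was -0.06. The eotaxin receptor *Ccr3* had a difference of -0.31 (adjusted p = 0.118), *Ear6*, an eosinophil ribonuclease, -0.20 (adjusted p = 0.245) and *Rnase2a*, another, -0.25 (adjusted p = 0.300). Of 23 genes listed as other mast cell and basophil genes, 1 rose and 1 fell (3.42% and 3.82% of all genes did). Neither is made by these cells alone. Of the 23 differences 13 were positive, and the median was 0.02. The tetraspanin *Cd9* rose by 0.37 ± 0.10 (adjusted p = 0.0358), and as with *Kit*, KO mouse 1 was the lowest KO liver, at 10.58. *Kitl*, stem cell factor, the ligand of KIT, fell by 0.27 on the log2 scale (SE 0.08, adjusted p = 0.0408), with all 6 KO livers, 7.18 to 7.65, below all 6 WT livers, 7.66 to 7.91. The margin between the groups was narrow, and *Kitl* and *Cd9* were each called in 12 of the 22 other settings. *Mitf*, the transcription factor required for mast cells, had a difference of -0.22 ± 0.08 (adjusted p = 0.106). The largest difference of the list was that of *Mcpt1*, a mast cell protease, at 0.74 ± 0.28 (adjusted p = 0.134). Its signal was low, with means of 5.54 in KO and 4.80 in WT livers. The ligand *Kitl* and its receptor *Kit* thus had differences of opposite sign, of which that of *Kit* did not pass.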

How the data were processed

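Expression in 12 fetal livers was measured on Affymetrix Mouse Gene ST arrays, 6 per genotype as labelled. Deposited values were on a log2 scale, computed by the authors with RMA per the labels: background was corrected, arrays were brought to a common distribution, and probes were summarised per probeset. Neither the version of RMA nor the build is given in the sources used here. Arrays carry no read depth, and their number limits the precision. Of 35556 probesets, 21789 had 1 gene symbol, 1621 several and 12146 none in the platform's gene table. The brightest single-symbol probeset stood for a gene, which gave 19938 genes with no filter.

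A linear model per gene (limma 3.58.1, R 4.3.3; lmFit, then eBayes) without covariates gave two-sided p-values, with Benjamini-Hochberg adjustment over all genes at 0.05. The script was tested on simulated data. Tables used Python 3.11.15 and pandas 2.3.3. The members and lists were chosen with earlier results of these data in view. Values of 24 members were given per group: in each role the 2 brightest and the 2 with the largest difference. Of each related list the 3 smallest p-values were named, further genes after their values were seen. Other settings are in the closing section. Fits within the 6 lowest animal numbers (KO mice 1 and 2, WT mice 1 to 4) were added after seeing the data. So were fits within the 6 highest (KO mice 3 to 6, WT mice 5 and 6). The genotypes were thus uneven in each, and all livers marked as male were among the 6 lowest.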

Additional observations from a re-analysis of the deposited data

Results flagged for a closer look

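*Chil3* in KO mouse 3 stood apart from the other KO livers. It read 8.94 there, and the other 5 KO livers read between 8.44 and 8.62. The gap to the nearest liver was 0.632 of the group's whole range. Of 64 groups of 6 livers tested, 2 for each member, this was the 1 that passed, and chance alone flags about 1 group in 20. In WT livers *Chil3* also reached 8.93, in mouse 5.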

How the results depend on the processing

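The count of 0 members lower held in each setting tried. Members called higher numbered 2 after renewed quantile normalization (*Ctsg*, *Mmp8*), 1 after a median shift and 1 without genes under the 25th percentile of signal (*Mmp8* each time). The count was 3 without genes under the 50th percentile (*Ctsg*, *Kit*, *Mmp8*), 2 with intensity trend and robust settings (*Ctsg*, *Mmp8*) and 2 with array weights (*Kit*, *Mmp8*). It ran from 0 to 3 when 1 liver was left out: *Kit* was called without KO mouse 1, WT mouse 5 or WT mouse 6, *Mmp8* without WT mouse 3, and *Ctsg* and *Prtn3* without WT mouse 5. The cause was not tested. Mouse numbers of the titles were not taken to pair the livers, since the labels tie no litter or batch to a number. Deviations of same-numbered livers had correlations of 0.367, 0.086, 0.390, 0.019, 0.138 and 0.127, all positive. Of 6 livers each, 3 KO and 2 WT livers correlated best with their own number. A link between livers of the same number was not tested. With the replicate block 2 members were called higher (*Kit*, *Mmp8*), and 2 related genes lower and 4 higher. Related genes lower, 3 in the report, were 5 without genes under the 50th percentile, 8 with array weights and 2 to 7 with 1 liver left out. Related genes higher, 5 in the report, were 8 with array weights, 2 with the sex score, 2 with animal numbers as a block and 1 to 7 with 1 liver left out. Both counts were 0 within the 6 lowest and within the 6 highest animal numbers, settings with fewer livers added after seeing the data, and 0 by the exact Mann-Whitney test, which called 0 genes of all.

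Of 594 values of the 24 members under other settings, 556 kept sign and side of the threshold, 19 passed it and 19 changed sign, and the changes of sign were in values with adjusted p of 0.633 or more. *Elane* turned to 0.00441 after quantile normalization and 0.122 within the 6 lowest animal numbers. Within the 6 highest, *Mpo* was -0.0331, *Ly6g* -0.0102, *Cebpe* -0.0522, *Epx* -0.0733 and *Ms4a3* -0.0186. With 1 liver left out, *Elane* ran from -0.0356 to 0.0418, *Cxcr2* from -0.0029 to 0.0920, *Ly6g* from -0.0410 to 0.0919 and *Epx* from -0.0170 to 0.0724. Arrays carry no read depth. Signal over background was not measured, and 7 members were below the array median.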

Other observations

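By gene order in RefSeq GRCm38.p6, 10 of the members form 5 pairs of direct neighbours: *Prtn3* with *Elane*, *Mcpt8* with *Ctsg*, *Ms4a2* with *Ms4a3*, *Prg2* with *Prg3* and *S100a8* with *S100a9*. Neighbours had like values in the calprotectin pair (0.07 and 0.10) and in the major basic protein pair (-0.10 and -0.13). Signs differed between *Prtn3* (0.14) and *Elane* (-0.003) and between *Ms4a2* (-0.10) and *Ms4a3* (0.10). The pair of *Mcpt8* (-0.28), a basophil protease, and *Ctsg* (0.18), a neutrophil protease, had opposite signs, with unadjusted p-values of 0.0220 and 0.0064 in limma and adjusted p-values of 0.148 and 0.0701. The difference between the neighbours was not tested.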
